A study of Homo sapiens with 9 samples.

Results

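PF8503 and PF846 are small molecules that arrest the human ribosome on a narrow set of nascent chains. In most proteins the ribosome passes through the early part of the coding sequence in their presence, whereas on sensitive chains it stops and few ribosomes are found further downstream. Ribosome profiling sequences the stretches of mRNA that ribosomes shield from nuclease, so the reads downstream of a stop report how much of a chain is still being made. Mitochondria carry their own ribosomes, which translate only the few proteins encoded by mitochondrial DNA (mtDNA).

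The comparison set PF8503 directly against PF846 in Huh-7, a human hepatocellular carcinoma line. Cells received 1.5 μM PF8503 (PF-06378503), 1.5 μM PF846 (PF-06446846 in the study's design text) or 0.5% DMSO as vehicle, each for 1 hr, in 3 biological replicates per condition and 9 libraries in all. Dose and time were therefore matched for the 1 pair of compounds. The authors deposited, for each compound, the mean normalized count per transcript over the libraries of each condition. These means carry no value of a single library, so no replicate error, interval or p-value can be given for the difference between the compounds, and the depth per library is unknown. Differences from vehicle are likewise given as values only. By their names the libraries were run in lanes 4, 4 and 8 (PF8503), 2, 2 and 6 (PF846) and 1, 1 and 5 (vehicle), and an effect of the lane cannot be told apart from that of the compound.

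The tables listed 9221 transcripts between them, of which 8775 were in both. The authors counted reads 3' of the stop where one was called, so the counted region of a transcript can differ between the tables. Both tables used the same vehicle libraries, and the ratio of their vehicle means is constant wherever the same codons were counted. The contrast was limited to the 8641 transcripts whose vehicle ratio lay within 0.002 of its median on the log2 scale. The contrast of a transcript is the log2 ratio of its level with PF8503 to its level with PF846 after this constant (0.13 on the log2 scale) was removed, so that a negative value means lower with PF8503. Levels of PF846 below are given on the scale of the PF8503 table, and levels are not divided by length.

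This rule left out 134 transcripts, with the shorter region in the PF8503 table for 92 and in the PF846 table for 42. Among them were 45 of the 60 transcripts that the study itself listed as affected by either compound, so the contrast says nothing about those. The transcripts just inside the limit were A2M and RPL27, whose vehicle ratios deviated by 0.00031 and 0.0019. Those just outside were BRI3BP and PLA2G15, at 0.0046 and 0.0090. A2M, a plasma protease inhibitor, had a contrast of 0.02 and RPL27, a large-subunit ribosomal protein, of 0.41. Computed without regard to the region, the values were 0.49 for BRI3BP and -0.19 for PLA2G15.

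A mean level of at least 100 normalized counts over the 3 conditions was required for counting, which 7970 transcripts passed, 12 of them mitochondrially encoded. All 12 hepatocyte markers looked up, such as ALB and AFP, were listed. The 9 of them kept in the contrast had vehicle levels from 1249 to 212970. Of the other marker lists, 2 of 6 leukocyte markers (CD68 and LYZ), 1 of 4 endothelial markers (PECAM1) and 1 of 6 fibroblast markers (ACTA2) were listed, while PTPRC, VWF and COL1A1 were not. The vehicle levels of CD68 and LYZ ran from 889 to 7769, and that of PECAM1 was 170.

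The 2 compounds gave nearly the same level for most transcripts. A level is that of a bulk lysate, in which fewer ribosomes per mRNA, less mRNA per cell and a smaller share of cells with that mRNA cannot be told apart. Where no stop was called, ribosomes held up within the counted region would add to the level. A higher level therefore need not mean that more protein was made, and this was not tested. The median contrast was 0.01, the central 95% ran from -0.24 to 0.25, and 95.4% of transcripts lay within 0.25 of 0. GAPDH, a glycolytic enzyme, had 78807 normalized counts with vehicle, 79074 with PF8503 and 78847 with PF846, and a contrast of 0.00. The scatter was wider at low levels. The central 95% ran from -0.30 to 0.33 among transcripts at 100 to 200 normalized counts and from -0.18 to 0.17 at 1000 to 5000. This scatter over transcripts is the only yardstick the tables offer, and it mixes counting error with true differences.

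A contrast of -0.5 or lower (at least 1.41-fold lower with PF8503) was found for 25 transcripts, or 0.314% of those tested. A contrast of 0.5 or higher was found for 5, or 0.0627%. Of the 25 lower transcripts 8 were mitochondrially encoded and 17 nuclear-encoded, and 11 had a level of at least 1000. All 5 higher transcripts had levels below 500. At low levels a transcript can pass the level filter through the condition in which it is high, as HIST1H4L did.

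**Figure D1:**
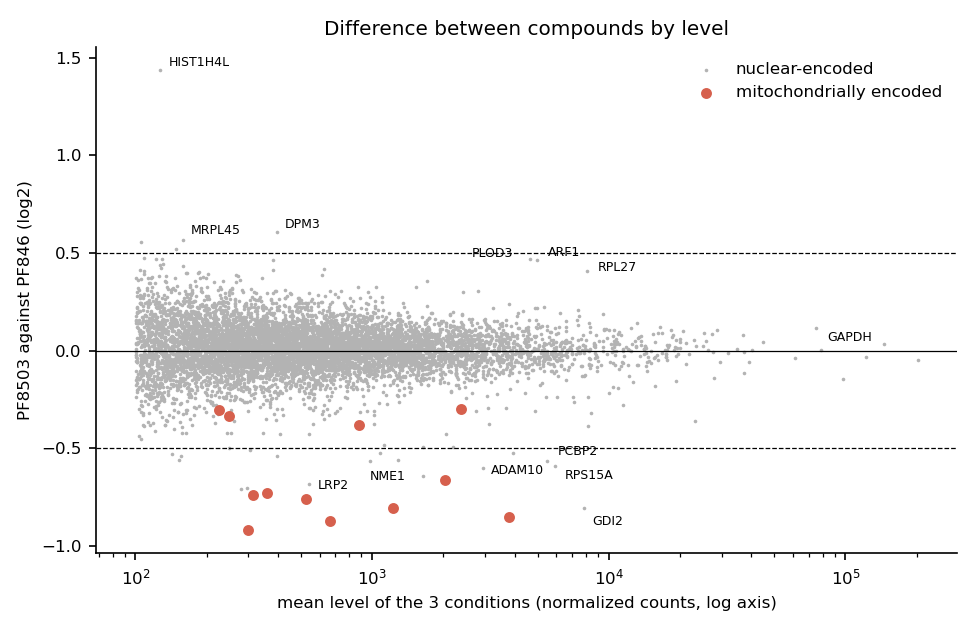
The contrast of each of the 7970 transcripts (vertical axis, log2 of PF8503 over PF846) against its mean level over the 3 conditions (horizontal log axis, normalized counts). Dashed lines mark 0.5 in either direction. Red points are the 12 mitochondrially encoded transcripts, all of them below 0. At high level isolated points lie on both sides. GDI2 (-0.81) is the farthest of them on the lower side, and PLOD3 (0.47), ARF1 (0.46) and RPL27 (0.41) stand on the upper side.

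The opening bases of the coding sequences show what the ribosome reads first on the well-measured transcripts at both ends, those with the 5 lowest and the 5 highest contrasts among nuclear-encoded transcripts at a level of at least 1000. Each is written 5' to 3' on the coding strand with the start codon in capitals, from the canonical transcript of GENCODE version 44 on GRCh38, which may differ from the transcript the authors counted. The lower end was:
GDI2: ATGaatgaggagtacgacgtgatcgtgctg
NME1: ATGgccaactgtgagcgtaccttcattgcg
ADAM10: ATGgtgttgctgagagtgttaattctgctc
RPS15A: ATGgtgcgcatgaatgtcctggcagatgct
PCBP2: ATGgacaccggtgtgattgaaggtggatta
The higher end was:
PLOD3: ATGacctcctcggggcctggaccccggttc
ARF1: ATGgggaacatcttcgccaacctcttcaag
RPL27: ATGggcaagttcatgaaacctgggaaggtg
ATP5I: ATGgtgccaccggtgcaggtctctccgctc
ZNF444: ATGgaggtggcggtgcccgtgaagcaggag
G or C made up 13 to 16 of the 30 bases in the 5 lower sequences and 15 to 21 in the 5 higher ones.

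These stretches lie in exon 1 of GDI2 (chr10:5813229-5813258, reverse strand), exon 2 of NME1 (chr17:51155655-51155684, forward), exon 1 of ADAM10 (chr15:58749505-58749534, reverse), exon 2 of RPS15A (chr16:18789084-18789113, reverse) and exon 2 of PCBP2 (chr12:53454801-53454830, forward). At the higher end they lie in exon 1 of PLOD3 (chr7:101217245-101217274, reverse), exon 2 of ARF1 (chr1:228097115-228097144, forward), exon 2 of RPL27 (chr17:42998751-42998780, forward), exon 1 of ATP5I (chr4:674218-674247, reverse) and exon 3 of ZNF444 (chr19:56146912-56146941, forward).

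The mitochondrially encoded transcripts, which encode core subunits of the respiratory chain and ATP synthase, were the class with the lowest median. All 12 tested were lower with PF8503 than with PF846, with a median contrast of -0.73 against 0.01 over all transcripts, and 8 of 12 passed -0.5. The compounds lay on opposite sides of vehicle. Against vehicle, PF8503 was lower for all 12 (median -0.32, from -0.52 to -0.09) and PF846 was higher for all 12 (median 0.39, from 0.15 to 0.57). Summed over the 13 mitochondrially encoded transcripts, their share of the normalized counts of all same-region transcripts was 0.120% with vehicle, 0.0990% with PF8503 and 0.156% with PF846.

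The cytochrome c oxidase subunit MT-CO1 had the highest count of the class. It had 3579 normalized counts with vehicle, 2765 with PF8503 and 4990 with PF846, a contrast of -0.85. MT-CO2 had 624, 484 and 887 in the same order (-0.87), and MT-CO3 had 1946, 1600 and 2534 (-0.66). In all 3 subunits PF8503 gave the lowest mean and PF846 the highest.

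MT-CYB, the cytochrome b of complex III, had 1188 normalized counts with vehicle, 903 with PF8503 and 1580 with PF846 (-0.81). The ATP synthase subunits MT-ATP6 (-0.76) and MT-ATP8 (-0.73) had the same order of conditions. Their genes overlap on mtDNA (MT-ATP8 at 8366 to 8572 and MT-ATP6 at 8527 to 9207), and reads from the shared bases cannot be assigned to 1 of them.

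The complex I subunits fell into a lower and a higher set. MT-ND1 had 296 normalized counts with vehicle, 206 with PF8503 and 391 with PF846, and its contrast of -0.92 was the lowest of all 7970 transcripts. MT-ND2 had a contrast of -0.74. MT-ND3, left out of the counts by its level, had 88.9, 61.8 and 111 normalized counts in the same order, a contrast of -0.84.

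The other complex I subunits had smaller contrasts, of -0.38 for MT-ND4, -0.34 for MT-ND4L, -0.31 for MT-ND6 and -0.30 for MT-ND5. MT-ND5 was well measured, with 2291 normalized counts with vehicle, 2155 with PF8503 and 2651 with PF846. The genes of these 4 subunits are neighbours on mtDNA, between positions 10470 and 14673, and MT-ND6 is read from the opposite strand. MT-ND4L and MT-ND4 overlap (10470 to 10766 and 10760 to 12137). These 4 were set apart by their contrasts, so their values against vehicle are no separate evidence of a division. With PF8503 the sets nearly met, at -0.168 for MT-ND4L and -0.192 for MT-ATP6. PF8503 was at -0.17 to -0.09 against vehicle for the 4 and at -0.52 to -0.19 for the other 8, and PF846 was at 0.15 to 0.22 and at 0.34 to 0.57.

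**Figure D2:**
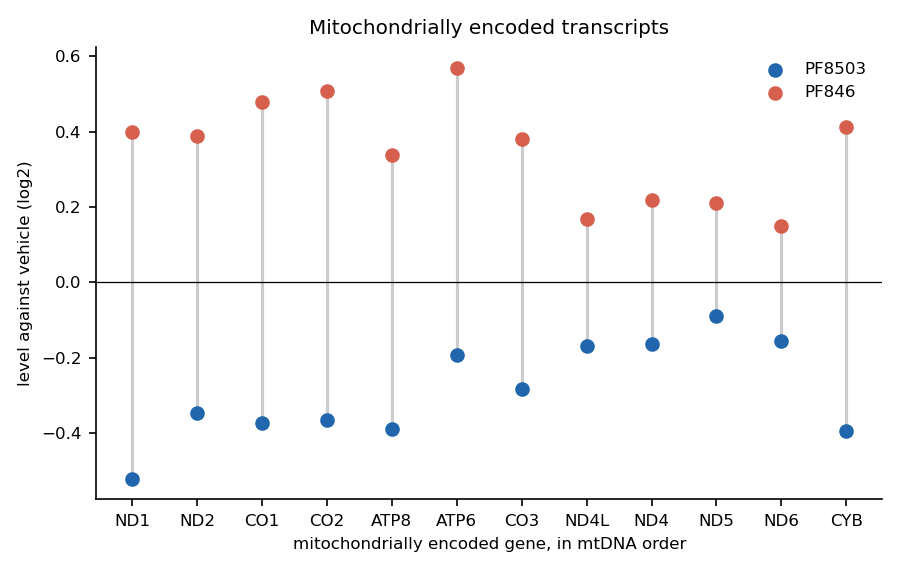
Level against vehicle (vertical axis, log2) of the 12 mitochondrially encoded transcripts tested, in their order on mtDNA (horizontal axis), with PF8503 in blue and PF846 in red; a grey line joins the values of 1 gene and its length is the contrast. Every blue point is below 0 and every red point above it, and the lines are shortest for ND4L, ND4, ND5 and ND6, at -0.38 to -0.30.

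The nuclear-encoded proteins that work beside these subunits had medians near 0. The median contrast was 0.03 over 36 nuclear-encoded subunits of complexes I and II, with 0 past 0.5 in either direction, and 0.00 over 36 subunits of complexes III, IV and V. It was 0.02 over 67 mitochondrial ribosomal proteins, of which 27 were below 0. Over 35 factors of mitochondrial transcription, RNA processing and translation it was -0.03, and 23 were below 0. Of all transcripts tested 45.4% were below 0. The mitochondrial ribosomal proteins held a transcript at each end. MRPS27 of the small subunit had 1176 normalized counts with vehicle, 847 with PF8503 and 1219 with PF846 (-0.53), and MRPL45 of the large subunit had 190, 170 and 115 (0.57).

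Among nuclear-encoded transcripts the lower end held mostly those below vehicle with PF8503 and close to vehicle with PF846. All 17 transcripts past -0.5 were below vehicle with PF8503, from -1.43 to -0.22, while 13 of the 17 lay within 0.15 of vehicle with PF846. The 17 were picked by the contrast, which by itself favours values below vehicle with PF8503. The share of all transcripts within 0.15 of vehicle with PF846 was not computed. Whether 13 of 17 differs from that share was therefore not tested. The 3 that were more than 0.25 below vehicle with both compounds were PCBP2, MKKS and PDE3B. TUBA8 was the exception of the other kind, at 0.34 with PF846 and -0.22 with PF8503. The median coding length of the 17 was 463 codons, against 477 over all nuclear-encoded transcripts tested.

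Of the 15 lowest, 14 lay outside the central 99% of transcripts in their own class of level, PCBP2 being the exception because its class held other low transcripts. Since the transcripts were picked by this value, that is a description of how far out they lie.

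Regulators of membrane traffic and surface proteins made up part of the lower end. GDI2, which keeps Rab GTPases soluble between rounds of transport, had 9246 normalized counts with vehicle, 5186 with PF8503 and 9075 with PF846. Its contrast of -0.81 (PF8503 at 0.571 of PF846) was the lowest of any nuclear-encoded transcript. ADAM10, the membrane protease that sheds Notch and other surface proteins, had 3529, 2105 and 3193 in the same order (-0.60).

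LRP2, the large endocytic receptor megalin, had 586 normalized counts with vehicle, 400 with PF8503 and 642 with PF846 (-0.69). SLC13A5, the citrate carrier of the hepatocyte surface, had 1107, 742 and 1099 (-0.57). The secreted protease ADAMTS1 had 1402, 999 and 1473 (-0.56). PF846 was within 0.15 of vehicle for all of these, so the contrast followed the PF8503 level.

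Proteins that bind or process RNA or make protein formed another part. RPS15A, of the small ribosomal subunit, had 7042 normalized counts with vehicle, 4254 with PF8503 and 6418 with PF846 (-0.59). PCBP2, which binds poly(C) stretches of mRNA, had 8575, 3181 and 4713 (-0.57), so both compounds were below vehicle and PF8503 was the lower. The splicing factor CDC40 had a contrast of -0.54.

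Enzymes and organelle proteins completed the lower end. NME1, a nucleoside diphosphate kinase, had 1872 normalized counts with vehicle, 1199 with PF8503 and 1871 with PF846 (-0.64), and thus equalled vehicle with PF846. PDE3B, which breaks down cyclic nucleotides, had 378, 193 and 316 (-0.71). MIEF1, an outer-membrane protein of mitochondrial fission, had 309, 202 and 329 (-0.71).

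CTSA, the lysosomal cathepsin A, had 4532 normalized counts with vehicle, 2984 with PF8503 and 4290 with PF846 (-0.52). MKKS, a chaperonin-like protein of the cilium base, had 202, 107 and 156 (-0.54). The lower end also held the alpha-tubulin TUBA8 (-0.56) and the recombination factor SFR1 (-0.53), both at levels of 100 to 200, and MTFR1, a regulator of mitochondrial fission outside the 15 lowest, with 338, 236 and 337 (-0.51). NME1, PCBP2, GDI2 and TUBA8 have close relatives in the genome, and reads that the authors could not place at a single position were dropped, so their counts rest on the bases that differ.

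The higher end held fewer transcripts at this fold, though not at a fold of 0.25 on the log2 scale, where 195 were higher and 169 lower. HIST1H4L, a histone H4 gene, had 77.0 normalized counts with vehicle, 223 with PF8503 and 82.3 with PF846, a contrast of 1.44 (2.71-fold). It is 1 of many H4 genes that encode the same protein, and the other 8 in the set lay between -0.06 and 0.22, so the assignment of its reads is uncertain. DPM3, a subunit of dolichol-phosphate mannose synthase, which supplies mannose for glycoproteins, had 316, 524 and 344 (0.61), and was above vehicle mainly with PF8503. MRPL45 was instead below vehicle mainly with PF846 (-0.72 against -0.16).

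CXCL3, a chemokine, had 107 normalized counts with vehicle, 125 with PF8503 and 84.8 with PF846 (0.56), and lay on opposite sides of vehicle. C8orf82 was similar, at 0.19 with PF8503 and -0.33 with PF846 (0.52). These were the only 5 transcripts past 0.5, at levels from 106 to 395.

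Of the 5 well-measured transcripts at the higher end, 3 were below vehicle with PF846 by more than 0.15. PLOD3, a lysyl hydroxylase of collagen maturation, had 4931 normalized counts with vehicle, 5234 with PF8503 and 3778 with PF846 (0.47). ARF1, the GTPase that recruits coats to Golgi membranes, had 5480, 5480 and 3975 (0.46). RPL27 had 12833, 6496 and 4904 (0.41), so that both compounds were well below vehicle and PF846 was the lower.

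ATP5I, the e subunit of ATP synthase, differed from these, with 1559 normalized counts with vehicle, 1991 with PF8503 and 1557 with PF846 (0.35). ZNF444, a zinc finger protein, had 982, 1179 and 940 (0.33). In these 2 transcripts PF846 was within 0.15 of vehicle and PF8503 was above it. RPL27 was the transcript nearest the limit of the region rule, and it leaves the set at a limit of 0.001.

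Below the fold of 0.5 the 15 highest held regulators and small proteins at low levels. GATA2, a transcription factor, had 100 normalized counts with vehicle, 131 with PF8503 and 94.2 with PF846 (0.48). MAFF, a small bZIP regulator, had 119, 143 and 103 (0.47), and OST4, the smallest subunit of the oligosaccharyltransferase, had 351, 459 and 333 (0.46). The others were the ubiquitin ligase UBE3D (0.47), the Fanconi anaemia protein FAAP20 (0.44), the deacetylase HDAC11 (0.44), UNC93A (0.43) and the pyridoxal phosphatase PDXP (0.42). Of these 15 transcripts 13 were above vehicle with PF8503 and 13 were below it with PF846. Of all 7958 nuclear-encoded transcripts tested, 4426 were above vehicle with PF8503 and 3939 below it with PF846. The 15 were picked by the contrast, which by itself favours these directions, so their counts only describe the selected set.

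**Figure D3:**
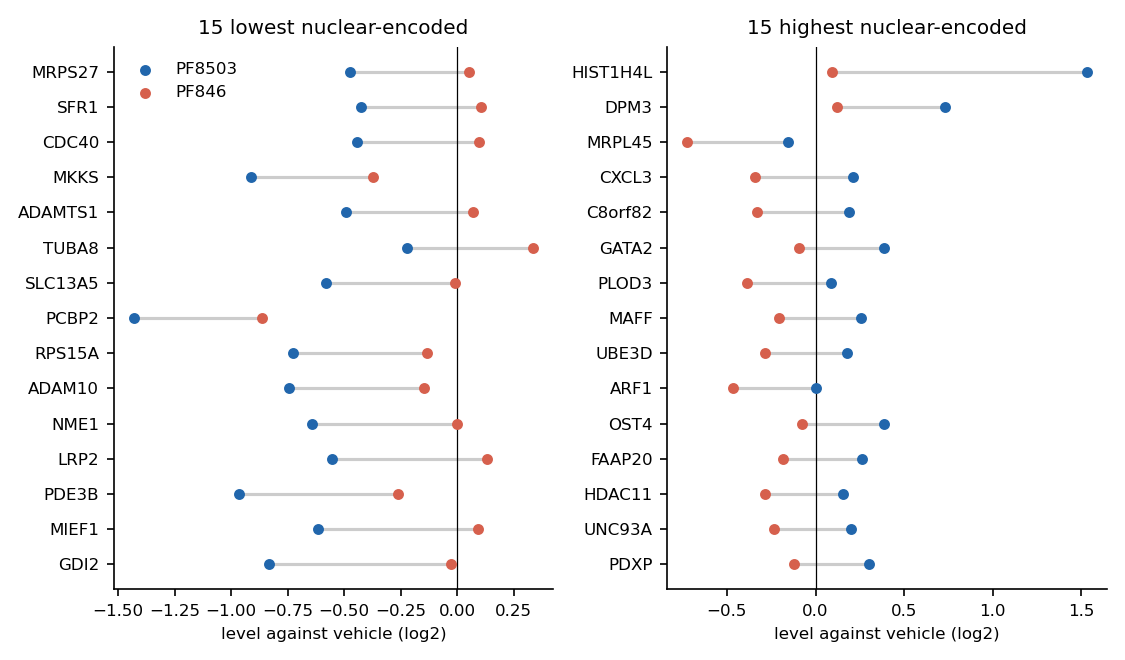
Level against vehicle (horizontal axis, log2) with PF8503 (blue) and PF846 (red) of the 15 lowest and the 15 highest nuclear-encoded transcripts by contrast. The most extreme are GDI2 at the bottom on the left and HIST1H4L at the top on the right. On the left the blue points are all below 0 and most red points near it. On the right 13 blue points are above 0 and 13 red points below it. The transcripts on each side were picked by the contrast, which by itself favours these positions. ARF1 (0.00 and -0.46) and DPM3 (0.73 and 0.12) are among the exceptions.

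Of the 60 transcripts in the study's own list, chosen by it on these samples, 15 were in the set. Their median contrast was -0.52, with 8 past -0.5 (GDI2, PDE3B, NME1, ADAM10, RPS15A, PCBP2, MKKS and CTSA) and 0 past 0.5, against 0.314% and 0.0627% of all transcripts tested, and 4 were above 0. The list was made from these libraries, so it is no independent evidence of the direction. TGFBI, a secreted matrix protein, had 2311 normalized counts with vehicle, 1086 with PF8503 and 1529 with PF846 (-0.49). LTBP3, which anchors latent TGF-beta, went the other way, with 401, 220 and 173 (0.35). USMG5 and PTP4A1, the members above vehicle with both compounds, had contrasts of -0.13 and 0.25.

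Gene classes other than the mitochondrially encoded one lay close together. Over 35 lists with 1318 transcripts the median contrast ran from -0.05 to 0.13, and 30 of the 35 medians were within 0.05 of 0. The lists held 8 transcripts past -0.5 and 2 past 0.5, all of them named above, against 0.314% and 0.0627% of all transcripts tested.

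The highest median was that of immediate-early and short-lived regulators, genes whose mRNAs are made within minutes of a stimulus and are quickly lost. It was 0.13 over 20 transcripts, of which 17 were above 0, against 54.6% of all transcripts tested, and none passed 0.5. JUNB, a subunit of the AP-1 transcription factor, had 645 normalized counts with vehicle, 703 with PF8503 and 525 with PF846 (0.42). ATF3 had 209, 218 and 169 (0.37), and IER5 had 162, 209 and 163 (0.35). JUNB and ATF3 were thus below vehicle with PF846 and IER5 above it with PF8503. MYC was the lowest of the list, at -0.12.

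Genes of cholesterol synthesis and uptake had a median of 0.09 over 27 transcripts. Of these 23 were above 0, against 54.6% of all transcripts tested. INSIG1, which retains the SREBP complex in the endoplasmic reticulum, had 263 normalized counts with vehicle, 317 with PF8503 and 247 with PF846 (0.36). DHCR7, which reduces 7-dehydrocholesterol to cholesterol, had 5972, 6771 and 5932 (0.19). MSMO1, a sterol oxidase of the same pathway, was on the other side, with 2567, 2041 and 2310 (-0.18).

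Stress pathways differed little between the compounds. Integrated stress response genes had a median of 0.05 over 17 transcripts, from -0.05 for SHMT2 to 0.37 for ATF3, and ATF4 itself had 584 normalized counts with vehicle, 587 with PF8503 and 576 with PF846. Chaperones of the endoplasmic reticulum and the unfolded protein response had a median of 0.03 over 23, with HSP90B1 lowest (-0.36) and EIF2AK3 highest (0.24). Cytosolic heat shock proteins had -0.03 over 17. Factors of ribosome rescue and nascent-chain quality control had 0.02 over 26, from -0.15 for ANKZF1 to 0.11 for ZNF622.

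The translation machinery was nearly the same with both compounds apart from single members. Large-subunit ribosomal proteins had a median of -0.01 over 48, from RPL10A (-0.38) to RPL27 (0.41), and small-subunit proteins had 0.00 over 29, from RPS15A (-0.59) to RPS29 (0.19). Initiation factors (-0.01 over 46) and aminoacyl-tRNA synthetases (-0.02 over 35) had no member past 0.5. Of the 8 subunits of the cytosolic chaperonin CCT, which folds actin and tubulin, 7 were below 0, against 45.4% of all transcripts tested. Their median was -0.05, with a range of -0.08 to 0.02. Set against transcripts of like GC content the median was -0.02.

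Lists of secretory and membrane proteins had medians from 0.00 to 0.05, against 0.01 over all transcripts. The oligosaccharyltransferase, which attaches N-glycans, had a median of 0.05 over 10, from OSTC (-0.05) to OST4 (0.46), with the catalytic subunits STT3A at 0.03 and STT3B at -0.02. Lysosomal proteins had 0.05 over 39 and TMEM proteins 0.05 over 98. Solute carriers had 0.04 over 131, of which 85 were above 0, against 54.6% of all transcripts tested. Set against transcripts of like GC content these 3 medians were 0.01, 0.02 and 0.02. The signal recognition and translocon list (0.00 over 29) and vesicle coats (0.01 over 65) were at the median of all transcripts or below it. Plasma proteins secreted by hepatocytes had 0.04 over 28, from GC (-0.24), which carries vitamin D, to LRG1 (0.27). Splicing factors and hnRNP proteins lay on the other side at -0.03 over 62. So did tubulins and actins at -0.05 over 12, of which 7 were below 0, against 45.4% of all transcripts tested. The last of these medians was 0.06 when only levels of at least 1000 were used.

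**Figure D4:**
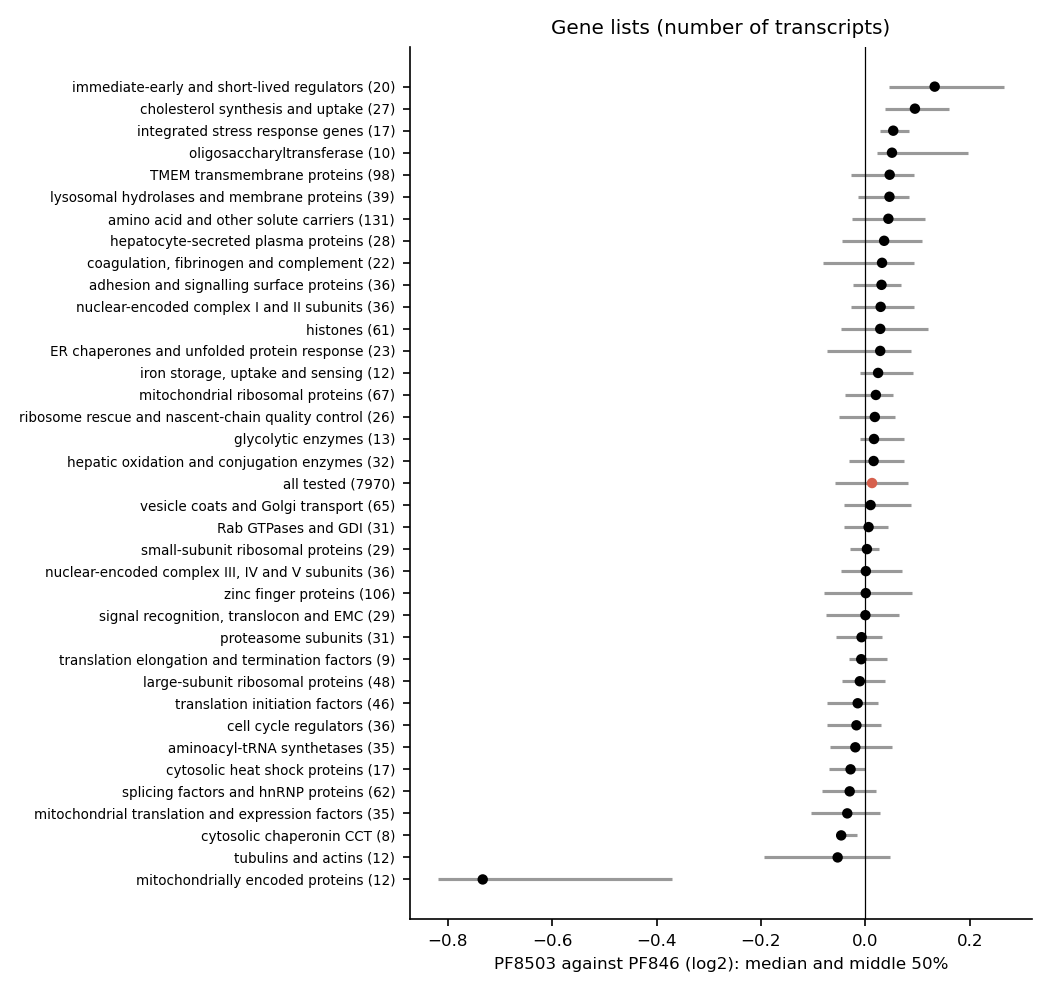
Median contrast (dots, log2 of PF8503 over PF846, horizontal axis) and its middle 50% (bars) for each of 36 gene lists, with the number of transcripts in parentheses and all 7970 transcripts in red. The mitochondrially encoded list stands at -0.73, and the others lie between -0.05 and 0.13.

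The contrast moved with base composition. Among 7929 nuclear-encoded transcripts with a coding sequence in the annotation, Spearman's rho between the contrast and GC content of the coding sequence was 0.41, a description over transcripts that share libraries and are not independent. The median contrast went from -0.06 in the group of 10 with the lowest GC content (34.1% to 41.1%) to 0.09 in that with the highest (63.0% to 79.7%). Most of this lay in PF8503, whose medians against vehicle went from -0.07 to 0.10 (rho 0.50), while those of PF846 went from -0.01 to 0.02 (rho 0.12). What part GC content has in the contrast was not tested.

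**Figure D5:**
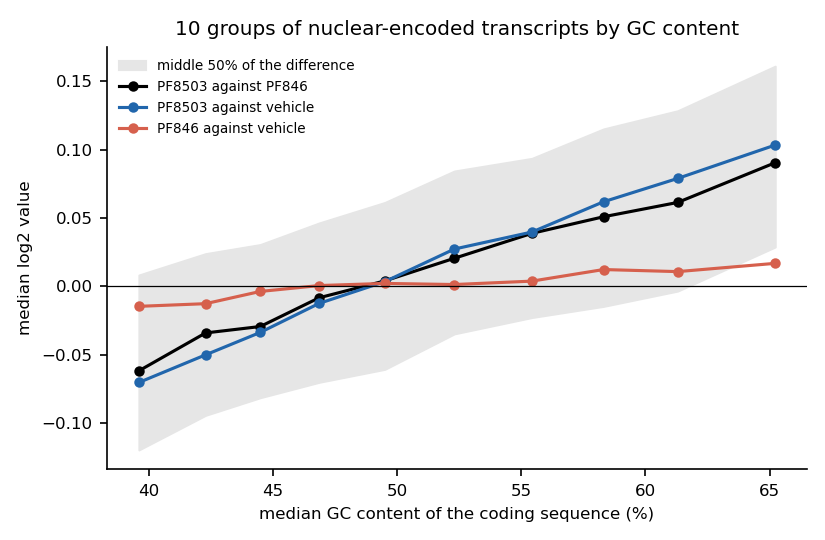
Median log2 values (vertical axis) in 10 groups of nuclear-encoded transcripts ordered by GC content of the coding sequence (horizontal axis, the median of each group in %): PF8503 against PF846 in black with its middle 50% shaded, PF8503 against vehicle in blue and PF846 against vehicle in red. The black line runs from -0.06 to 0.09 beside the blue one, and the red line stays between -0.01 and 0.02.

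With each transcript set against others of like GC content, GDI2 was at -0.77, MIEF1 at -0.77, NME1 at -0.66, PLOD3 at 0.42, ARF1 at 0.42 and RPL27 at 0.40. The mitochondrially encoded transcripts, with 39.7% to 47.7% GC, had a median of -0.69 on this scale. The list medians shrank, to 0.05 for immediate-early regulators (62.7% GC in the median), to 0.07 for cholesterol genes (55.5%) and to 0.01 for integrated stress response genes (58.2%). In C8orf82, MAFF, FAAP20, PDXP and ZNF444, with 70.7% to 73.6% GC, the value dropped to 0.41, 0.36, 0.33, 0.31 and 0.22.

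Coding length and the character of the first residues had smaller gradients. In 4 groups of equal size the median contrast was 0.03 for the shortest coding sequences (37 to 297 codons) and 0.00 for the longest (775 to 8797 codons). Hydrophobicity of the N-terminus was taken as the mean Kyte-Doolittle value of residues 2 to 30, since signal peptides and membrane anchors often lie there. Over 4 groups the median contrast was 0.00 in the least and 0.03 in the most hydrophobic one. The most hydrophobic group, with 1982 of the 7929 transcripts, held 8 of the 17 nuclear-encoded transcripts past -0.5 and 3 of the 5 past 0.5. From the least hydrophobic on, the other groups held 2, 2 and 5 past -0.5, and 1, 0 and 1 past 0.5. Whether these counts exceed the share of the group was not tested.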

How the data were processed

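Ribosome-protected fragments of 9 Huh-7 libraries were sequenced by the authors, who aligned reads with Bowtie to canonical coding transcripts (GENCODE version 24, GRCh38), kept those with a single position, and counted them 3' of a stop with a Z score of at least 2, or otherwise from 10 codons after the start. Versions of these tools are not given in the sources used here. Each signal value that the authors deposited is the mean, over the libraries of a condition, of counts divided by DESeq size factors. The deposited fold changes, their log2 and the p-values of the authors' own comparisons were not used.

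From the means were computed the contrast, medians and counts, without tests. GC content and coordinates came from GENCODE version 44 on GRCh38, matched by symbol for 8607 of 8641 transcripts (99.6%). The members and lists were chosen with earlier results of these data known. Genes named were the 15 lowest and 15 highest nuclear-encoded transcripts, the 5 lowest and 5 highest at a level of at least 1000, all mitochondrially encoded ones, the ends of described lists, GAPDH, members of the study's list past 0.5 and the transcripts at the region limit. MTFR1, and members of these lists beyond that rule, were picked with their values in view. The step was tested on simulated data. Alternatives were other folds (0.25 and 1), level filters (none, 30 and 1000), scalings, region limits, a pseudocount of 10, and centring on 20 classes of GC content. Python 3.11.15, numpy 2.4.6 and pandas 2.3.3 were used. Results for some genes are not reported here.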

Additional observations from a re-analysis of the deposited data

How the results depend on the processing

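No paired analysis was possible because the deposited columns are means over libraries and carry no replicate numbers, and for the same reason no replicate could be left out in turn. With a fold of 0.25 on the log2 scale, 169 transcripts were lower and 195 higher with PF8503. With a fold of 1 the counts were 0 and 1 (HIST1H4L). At a level of at least 1000 they were 11 and 0. At a level of at least 30, or with no filter on low values, 8 were higher. Without the filter on the counted region 96 were lower and 33 higher. The transcripts that then enter have unequal counted regions, and many are among those that the study listed as affected. What part the regions have in these counts was not tested. Both counts stayed within 1.5 times the reported ones under the other scalings, the other region limits, the pseudocount and centring by GC content, an alternative chosen after seeing the data. The median of the mitochondrially encoded transcripts ran from -0.75 to -0.69 over 11 alternatives. Of 883 values of genes and lists under these alternatives, 876 moved by less than 0.10 (log2), the robust SD of the contrast. No transcript past 0.5 turned its sign. Most of these values could hardly move, so the count is no measure of stability. Level filters and region limits do not alter the value of a single gene, and centring on the median or on equal sums shifts all genes alike. With centring by GC content 5 named genes moved by more than this and 42 did not. At a level of at least 1000 the coagulation list had a median of -0.08 in place of 0.03. Depth per library is unknown, so low transcripts are limited by counting error that the tables do not give.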

Other observations

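These genes were looked at after their values were seen. ALYREF, which hands spliced mRNA to the nuclear export receptor, had 2389 normalized counts with vehicle, 1755 with PF8503 and 2471 with PF846, a contrast of -0.49. THOC7, a subunit of the THO complex that works with it, had 455, 326 and 439 (-0.43), and ZC3H11A, another export factor, had 571, 516 and 630 (-0.29). The 7 other THO and export genes in the set lay between -0.08 and 0.06, so the class as a whole did not share these values.

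Of the 5 CXC chemokines in the set, 4 were higher with PF8503 than with PF846, against 54.6% of all transcripts tested. With so few members, picked by their values, this is no result about the class. CXCL1 had 613 normalized counts with vehicle, 693 with PF8503 and 531 with PF846 (0.38), and CXCL8 had 929, 1032 and 918 (0.17). CXCL5 had a contrast of 0.11 and CXCL16 of -0.08. CXCL1 and CXCL3 were on opposite sides of vehicle with the 2 compounds, as JUNB and ATF3 were.

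NME1 stood apart from the other nucleoside diphosphate kinases, whose 4 members in the set had contrasts from 0.02 to 0.28. The tumour suppressor gene CDKN2A had 249 normalized counts with vehicle, 318 with PF8503 and 244 with PF846 (0.38), and with 72.2% GC its value was 0.28 when set against transcripts of like GC content.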
